A study of Mus musculus with 6 samples.

Results

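The genes described here are 39 mouse genes of protein folding and stress signalling in the endoplasmic reticulum (ER): the stress sensors and their transcription factors, lumenal chaperones, disulfide isomerases, degradation factors, parts of the protein translocon, and stress outputs. They were chosen by symbol from a table of 35275 gene identifiers, all 39 were found, and 37 passed the filter on low counts. Poly-A RNA was sequenced from livers of p16-Cre/Rosa26-mTmG mice aged 1 year. In these mice a Cre recombinase under control of the p16 gene switches a membrane reporter from a red protein to GFP, so a cell stays green if it, or a cell it came from, has used the p16 promoter. Liver cells carrying CD31, an adhesion molecule of endothelium that leukocytes and platelets also carry, were enriched on magnetic columns and sorted into p16/EGFP-positive cells (3 libraries) and p16/EGFP-negative cells (3 libraries). Both groups share the genotype, the age and the CD31 enrichment, and no other treatment is given for either. The labels name no animals or batches, so the p-values measure the spread between libraries, which may be technical. The protocol also describes culture of CD31-positive cells in endothelial medium, and the sources used here do not say whether these libraries were made from cultured cells.

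The 6 libraries held 16766556 to 22627555 counts. Cdkn2a, the p16 gene, had 15, 27 and 7 counts in the GFP-positive libraries and 0 in every GFP-negative library. The leading principal component (51.9% of the variance) parted the groups, and the next (16.2%) set GFP-positive library 2 apart from the other GFP-positive libraries. Marker genes of several cell types differed between the groups (edgeR). All 12 Kupffer cell markers were higher in GFP-positive libraries, where their summed level was 20343 to 21593 CPM (counts per 1000000 of the library size scaled by TMM), against 1239 to 1676 CPM in GFP-negative libraries. Of 11 sinusoidal endothelial markers 10 were higher, with sums of 15961 to 17089 against 6587 to 7626 CPM, and of 10 pan-endothelial markers 6 were higher, with sums of 3054 to 3127 against 1517 to 1708 CPM. All 9 B cell markers found were lower, with sums of 88.4 to 160.2 CPM in GFP-positive libraries, compared with 13153 to 14324 CPM in GFP-negative libraries, and the B cell transcription factor Pax5 was at 0 in every GFP-positive library. The 8 plasma cell markers summed to 5.59 to 26.0 against 276 to 354 CPM, 2 of the 5 tested being lower, with Tnfrsf17 at 0 in both groups. The largest means in GFP-negative libraries were those of Tnfrsf13b (148 CPM), Irf4 (116 CPM) and Sdc1 (39.2 CPM), and Irf4 and Sdc1 did not pass. Igha had 0 counts in every GFP-positive library and 0, 0 and 172 counts in GFP-negative libraries, and Jchain had 66, 95 and 0 counts in GFP-positive and 35, 0 and 0 counts in GFP-negative libraries and did not pass. Of 12 immediate-early genes, which respond within minutes to stress such as tissue dissociation, 11 were lower, with sums of 370.4 to 554 against 8371 to 8716 CPM. T and NK cell markers summed to 16.8 to 37.5 against 751 to 800.3 CPM (2 of 8 tested lower with edgeR, 7 at an unadjusted p under 0.05 and 7 with DESeq2), plasmacytoid dendritic cell markers to 0.111 to 5.53 against 8.99 to 24.3 CPM (1 of 2 lower) and hepatocyte markers to 1133 to 1572 against 2151 to 2376 CPM (4 of 8 lower). In GFP-negative libraries Cd2 alone averaged 458 of the 770 CPM of the T and NK sum, and Cd3g, the next, 74.3 CPM. Neutrophil markers, 2 tested, summed to 1.61 to 11.2 against 3.09 to 5.35 CPM, and stellate cell and fibroblast markers, 4 tested, to 158 to 237 against 28.2 to 100.6 CPM. Of these 2 lists 0 genes passed with edgeR, while 0 and 1 had an unadjusted p under 0.05 and 0 and 1 passed with DESeq2. The most abundant called genes of these lists were Clec4f (5212 against 326 CPM), Clec4g (5443 against 2178), Egfl7 (535 against 299), Ighm (40.7 against 4955), Tnfrsf13b (2.25 against 148), Cd2 (3.79 against 458), Alb (654 against 1031), Junb (35.9 against 1657) and Pacsin1 (0 counts against 10.4 CPM), as means of the GFP-positive against the GFP-negative libraries. In such bulk libraries fewer cells of a type and less RNA per cell cannot be told apart, and the part of these differences in the results below was not tested.

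The ER folds and modifies proteins bound for the membrane or for secretion. When unfolded proteins accumulate, 3 sensors in its membrane act. IRE1 (Ern1) splices the mRNA of the transcription factor Xbp1, PERK (Eif2ak3) phosphorylates the translation factor eIF2 alpha and so favours translation of Atf4, and Atf6 is cut in the Golgi to free a transcription factor. Together they raise chaperones and degradation factors, and under lasting stress the factor CHOP (Ddit3). Cells that secrete much protein, such as plasma cells, rely on this response. Gene-level counts show neither the splicing of Xbp1 nor the phosphorylation or cutting of the sensors.

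Of the 11 ER chaperones and co-chaperones 8 did not pass the test between GFP-positive and GFP-negative libraries, among them the master chaperone Hspa5, whose mean level was 1886 ± 174 CPM in GFP-positive libraries, compared with 1892 ± 62.9 CPM in GFP-negative libraries (SD, n = 3 each). In the PERK branch, Ppp1r15a, the phosphatase subunit that reverses eIF2 alpha phosphorylation, fell to a fold of 0.0545, Atf4 to 0.259 and Eif2ak3 to 0.172 of the GFP-negative level. Lower levels were also called for the B-lineage protein Mzb1, the co-chaperone Dnajb9, the disulfide isomerase Txndc5 and the degradation genes Syvn1 and Herpud1. Sdf2l1 rose 1.87-fold and Manf 1.69-fold. In edgeR's quasi-likelihood test, with p-values adjusted over 12122 genes and a call at an adjusted p under 0.05, 8 of the 37 tested members were lower (21.6%) and 2 were higher (5.41%). Of all genes tested, 10.1% were lower, 7.65% were higher and 17.8% were called in either direction. The median log2 fold change (GFP-positive over GFP-negative) was 0.07 over the 37 members and −0.09 over all genes tested. Summed over all 39 members, the level was 9823, 9488 and 10252 CPM in GFP-positive libraries and 10578, 10099.6 and 10482 CPM in GFP-negative libraries. The libraries of the groups did not overlap for 17 of the 37 tested members, with GFP-positive libraries above in 6 and below in 11. Of all genes tested, 18.5% had them above, 23.9% below and 42.4% either. Leaving out GFP-negative library 1, 2 or 3 left 0 members higher and 3, 5 or 4 lower, and leaving out GFP-positive library 2 left 1 higher and 5 lower. Leaving out GFP-positive library 1 left 1 higher and 6 lower, and DESeq2 called 4 higher and 8 lower. Over all 12122 genes DESeq2 called 1426 higher and 1799 lower, against 927 and 1230 with edgeR. The fits without GFP-negative library 1, 2 or 3 called 498, 497 or 520 genes higher and 496, 530 or 525 lower. Those without GFP-positive library 1 or 2 called 628 or 600 genes higher and 994 or 922 lower.

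**Figure D1:**
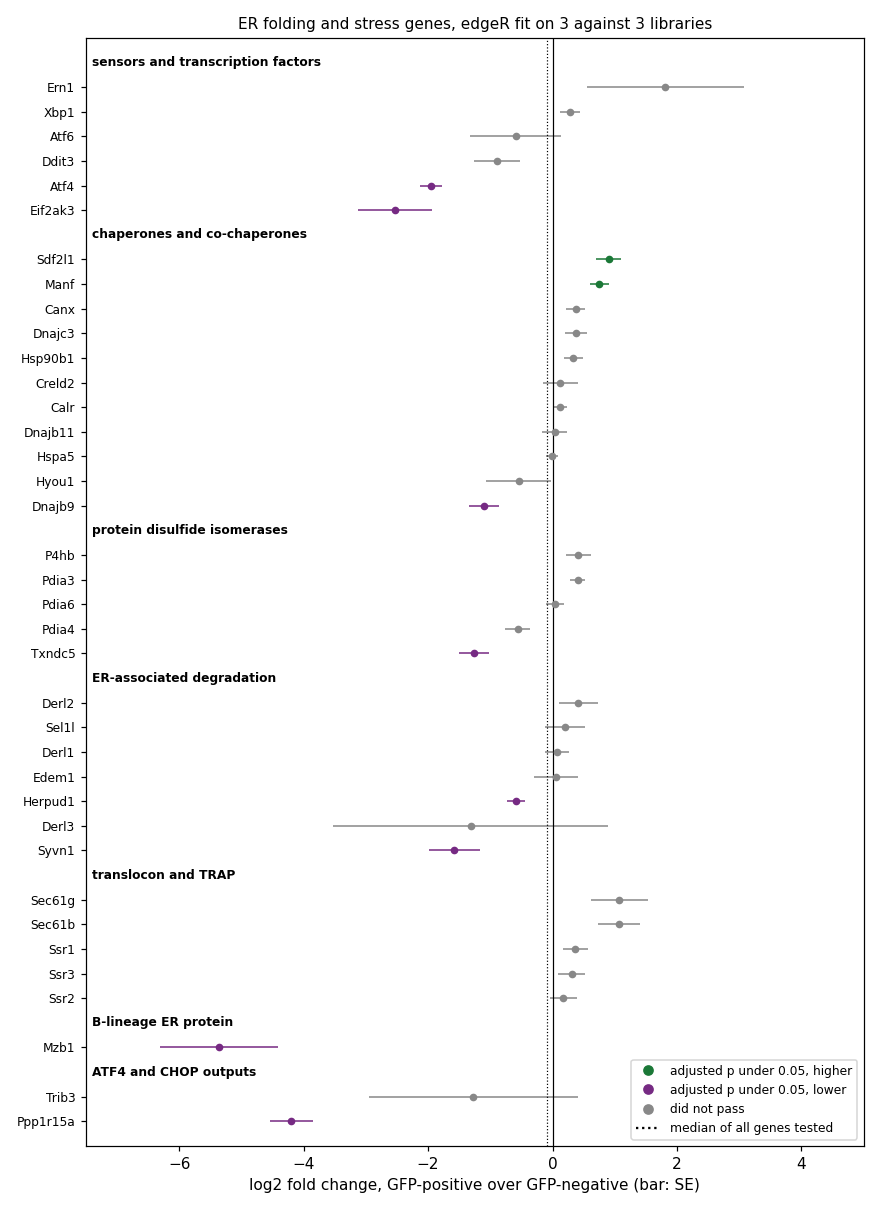
Log2 fold change of each of the 37 tested members, GFP-positive over GFP-negative (x axis), by role (y axis), as points with bars of 1 SE from edgeR on 3 against 3 libraries. Hspa5 and Dnajb11 lie near 0, while Mzb1 and Ppp1r15a lie farthest to the left. The dotted line is the median of all genes tested, −0.09.

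Among the 6 sensors and transcription factors 2 were lower and 0 higher (edgeR; 3 lower and 0 higher at an unadjusted p under 0.05, and 2 lower and 0 higher with DESeq2). Counts at an unadjusted p, here and in other lists, have no share of all genes beside them and describe the list alone. Atf4, the transcription factor of the integrated stress response, stood at 93.9, 97.6 and 107.2 CPM in GFP-positive libraries and at 339.8, 346.5 and 469.5 CPM in GFP-negative libraries. All GFP-positive libraries lay far below all GFP-negative ones, with a fold change (log2) of −1.95 ± 0.18 (SE; adjusted p = 0.000753 by edgeR). Eif2ak3, the kinase PERK, stood at 26.6, 6.53 and 37.3 CPM in GFP-positive libraries and at 145.4, 152.4 and 111.4 CPM in GFP-negative libraries. The groups did not overlap, GFP-positive library 2 was the lowest, and the log2 fold change was −2.54 ± 0.60 (SE; adjusted p = 0.0285 by edgeR). This call was lost without GFP-positive library 1 or without any 1 GFP-negative library (edgeR adjusted p = 0.0735 to 0.0948).

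Xbp1 stood at 280.9, 314.5 and 260.1 CPM in GFP-positive libraries and at 209.2, 268.4 and 228.6 CPM in GFP-negative libraries. The groups overlapped, and the log2 fold change of 0.28 ± 0.16 (SE) did not pass (edgeR adjusted p = 0.295; 95% interval −0.09 to 0.65). Ddit3, the factor CHOP that favours cell death under lasting stress, stood at 78.7, 35.2 and 36.9 CPM in GFP-positive libraries, compared with 87.2, 82.9 and 108.9 CPM in GFP-negative libraries. Its GFP-positive libraries lay below all GFP-negative ones, library 1 only just, and its log2 fold change of −0.89 ± 0.37 did not pass (edgeR adjusted p = 0.161), but did without GFP-positive library 1 (−1.36; edgeR adjusted p = 0.0300). The other sensors were low and uneven. Ern1 ranged from 4.93 to 37.0 CPM in GFP-positive libraries, compared with 0.414 to 8.18 CPM in GFP-negative libraries, and Atf6 from 9.73 to 62.9 and from 23.4 to 66.2 CPM. Neither passed (edgeR adjusted p = 0.400 and 0.665).

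The outputs of ATF4 and CHOP included the largest fall of the PERK branch. Ppp1r15a encodes GADD34, which brings a phosphatase to eIF2 alpha and ends the translational block, and it is also an early-response gene. It stood at 56.8, 76.3 and 30.6 CPM in GFP-positive libraries and at 1019, 1014 and 970.1 CPM in GFP-negative libraries. The groups were far apart, with a fold change (log2) of −4.20 ± 0.34 (SE; adjusted p = 0.000416 by edgeR), and the gene was lower under all 12 alternative settings. The immediate-early genes of the same libraries, whose sums are given above, were lower too, with a median log2 fold change of −4.36, and their part in this result was not tested. Trib3, a pseudokinase that restrains ATF4, stood at 4.77, 0 and 5.10 CPM in GFP-positive libraries, compared with 7.13, 10.5 and 6.18 CPM in GFP-negative libraries, and did not pass (edgeR adjusted p = 0.686). Chac1, an enzyme that degrades glutathione, had 45 counts in GFP-positive library 1 and 0 in every other library. Asns, asparagine synthetase, had 73 counts in GFP-negative library 2 and 0 in the others. Both were too low to be tested, and a count of 0 over a group allows up to 0.0584 CPM in the GFP-positive and 0.0496 CPM in the GFP-negative group (3 counts over the group, counting error only).

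**Figure D2:**
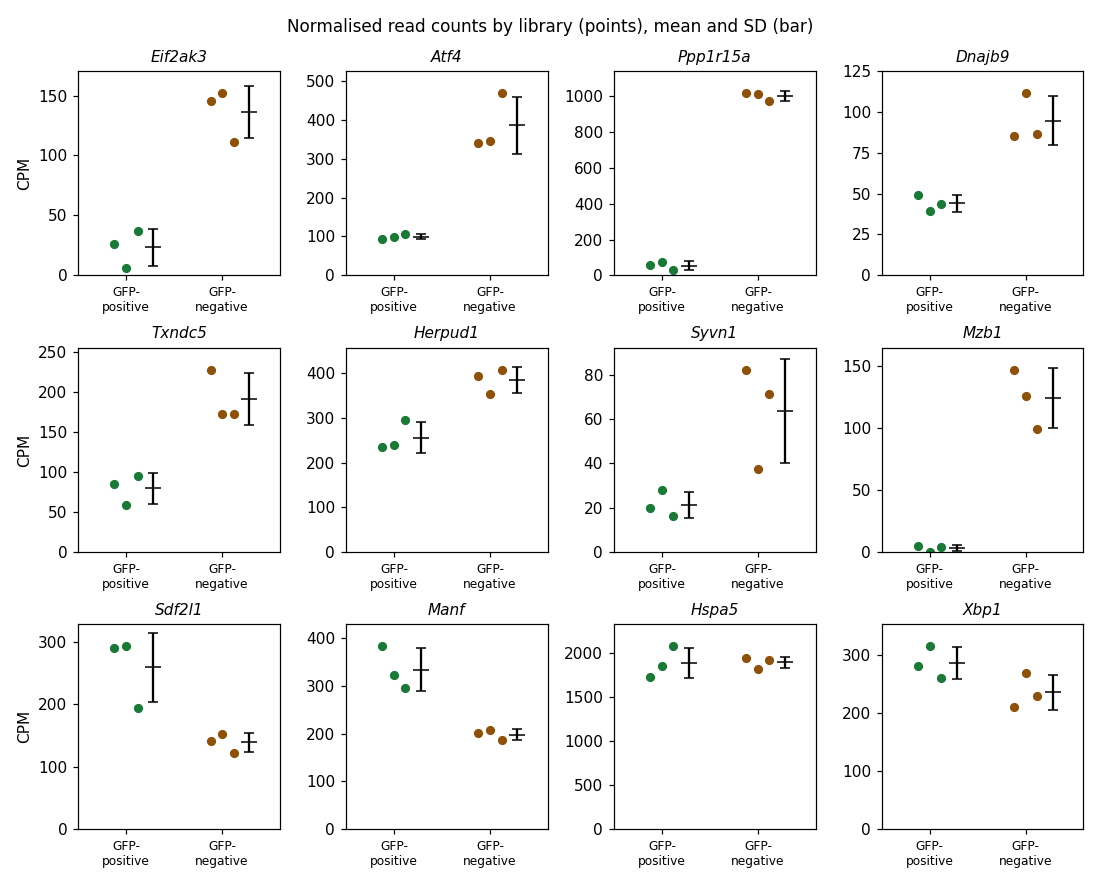
Normalised read counts (CPM, y axis, from 0) of 12 members in each library of the GFP-positive (left, green) and GFP-negative (right, brown) group, with the mean and SD of 3 libraries. Ppp1r15a lies at 30.6 to 76.3 CPM in GFP-positive libraries, compared with 970.1 to 1019 CPM in GFP-negative libraries, while Hspa5 overlaps between the groups.

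Of 11 chaperones and co-chaperones 2 passed as higher and 1 as lower. Hspa5, the HSP70 chaperone BiP that binds unfolded chains and holds the sensors inactive, stood at 1731, 1854 and 2074 CPM in GFP-positive libraries and at 1940, 1820 and 1915 CPM in GFP-negative libraries. The groups overlapped, with a fold change (log2) of −0.00 ± 0.10 (SE; adjusted p = 0.984 by edgeR) and a 95% interval from −0.23 to 0.22. Calr, the lectin chaperone calreticulin, stood at 935.4, 1016 and 1141 CPM in GFP-positive libraries, compared with 944.5, 895.8 and 991.9 CPM in GFP-negative libraries, a log2 fold change of 0.13 (95% interval −0.13 to 0.39; edgeR adjusted p = 0.511). Hsp90b1, the HSP90 of the ER, averaged 653 ± 115 CPM in GFP-positive libraries, compared with 518 ± 49.8 CPM in GFP-negative libraries (SD, n = 3 each), with a log2 fold change of 0.33 (95% interval −0.04 to 0.71) that did not pass. The intervals of Hspa5 and Calr reach to both sides of 0, and that of Hsp90b1 lies almost wholly above it.

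Sdf2l1, a partner of the HSP40 co-chaperone Dnajb11, stood at 290.1, 292.9 and 194.8 CPM in GFP-positive libraries and at 141.4, 152.9 and 122.3 CPM in GFP-negative libraries. Every GFP-positive library lay above every GFP-negative one, with a fold change (log2) of 0.90 ± 0.21 (SE; adjusted p = 0.0267 by edgeR). Its call was lost in each fit without 1 library except that without GFP-positive library 3 (edgeR adjusted p = 0.0784 to 0.0971). Manf, a small ER protein that is also secreted, stood at 383.1, 323.2 and 295.2 CPM in GFP-positive libraries and at 200.5, 207.7 and 185.7 CPM in GFP-negative libraries. The groups did not overlap, with a fold change (log2) of 0.75 ± 0.15 (SE; adjusted p = 0.0172 by edgeR), and the call was lost without any 1 GFP-negative library (edgeR adjusted p = 0.0614 to 0.0710). Dnajb9, an HSP40 co-chaperone of BiP and a known target of Xbp1, moved the other way. It stood at 49.4, 39.1 and 43.4 CPM in GFP-positive libraries, compared with 85.0, 111.7 and 86.6 CPM in GFP-negative libraries, a fold change (log2) of −1.10 ± 0.24 (SE; adjusted p = 0.0238 by edgeR). Its groups were well apart, but the call held in only 1 of the 6 fits without 1 library, that without GFP-positive library 1, and the others gave an edgeR adjusted p = 0.0519 to 0.0952.

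The other 5 chaperones did not pass. Canx, the membrane lectin chaperone calnexin, ranged from 629.2 to 900.9 CPM in GFP-positive libraries, compared with 527.0 to 610.5 CPM in GFP-negative libraries, with no overlap and a fold change (log2) of 0.37 ± 0.16 (SE; adjusted p = 0.163 by edgeR). Dnajc3, an inhibitor of PERK and co-chaperone, averaged 217 ± 27.5 CPM in GFP-positive libraries, compared with 168 ± 22.1 CPM in GFP-negative libraries. Dnajb11, an HSP40 that hands clients to BiP, averaged 209 ± 46.6 and 204 ± 16.3 CPM. Creld2, an ER protein induced by stress, averaged 70.8 ± 16.1 and 64.8 ± 12.4 CPM. Hyou1, a large chaperone that exchanges the nucleotide of BiP, averaged 23.3 ± 8.97 and 34.0 ± 15.7 CPM (SD, n = 3 each). The libraries of the 2 groups overlapped for these last 4 genes.

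Chaperone genes are known to share an ER stress response element (ERSE), CCAAT, 9 free bases and CCACG, to which NF-Y and ATF6 or XBP1 bind. It was searched on both strands, from 250 bases before to 50 after the start, in the promoters of RefSeq (build GRCm38.p6), which matched 33 of the 39 members. The element lay in 9 of these 33 members (27.3%) and in 39 of all 32851 promoters (0.119%). The 9 are Calr, Canx, Creld2, Derl3, Dnajc3, Hsp90b1, Hspa5, Pdia6 and Syvn1. All 9 were tested, 1 of them was called (Syvn1, lower), and their median log2 fold change was 0.13. Of all genes tested, 17.8% were called in either direction. The related ERSE-II (ATTGG, any base, CCACG) lay in Dnajb11 and Herpud1 and in 0.0365% of all promoters. Of the 11 members with either form, all tested, 0 were higher and 2 lower, with a median log2 fold change of 0.04. Of the 22 with neither form 20 were tested, with 1 higher, 5 lower and a median of 0.24. No test compared these sets. The UPRE core (TGACGTG) lay in Hspa5 and in a Txndc5 promoter (2.01% of all promoters), and a CCAAT box alone, which both ERSE forms contain, in 25 of 33 members (37.4% of all promoters). For the ATF4 element (CARE) only the form TGATG, any base, AAT was searched, and other forms of it were not. This form was found in 0 of 33 members and in 0.965% of all promoters. Atf6, Derl1, Hyou1, Manf, Mzb1 and Ssr2 had no entry. A match is a run of letters and not a bound site, and no match says only that these letters are not in the window.

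The ERSE of 6 members whose levels overlapped between the groups, all chaperones, co-chaperones or isomerases, is shown beside the elements of Syvn1 and Herpud1, which fell. Each is given 5′ to 3′ on the strand of its gene with 5 flanking bases, and capitals mark the element, which reads reversed where it lies on the other strand.
Hspa5 (chr2:34772020-34772048, + strand): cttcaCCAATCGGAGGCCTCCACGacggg
Hsp90b1 (chr10:86705633-86705661, − strand): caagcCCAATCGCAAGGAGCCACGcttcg
Hsp90b1, other site (chr10:86705528-86705556, − strand): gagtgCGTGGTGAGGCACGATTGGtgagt
Calr (chr8:84847070-84847098, − strand): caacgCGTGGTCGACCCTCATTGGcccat
Pdia6 (chr12:17266486-17266514, + strand): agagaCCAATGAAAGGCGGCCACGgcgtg
Dnajc3 (chr14:118937822-118937850, + strand): cacaaCCAATCAGCGCCAACCACGacccg
Creld2 (chr15:88819515-88819543, + strand): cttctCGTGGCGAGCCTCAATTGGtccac
Syvn1 (chr19:6046527-6046555, + strand): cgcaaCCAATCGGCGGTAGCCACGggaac
Herpud1, ERSE-II (chr8:94386372-94386392, + strand): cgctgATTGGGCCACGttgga

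The whole stretch of 250 bases before the start is shown for Hspa5, whose level did not pass the test, and for Atf4 and Ppp1r15a. These are the 2 members of the PERK branch that were called lower under every alternative setting. Capitals mark ERSE, UPRE core and CCAAT box matches on either strand. Hspa5 holds 1 ERSE, 1 UPRE core and CCAAT boxes outside them, Atf4 holds CCAAT boxes alone, and Ppp1r15a holds none of the motifs searched.
Hspa5 (chr2:34771840-34772089, + strand): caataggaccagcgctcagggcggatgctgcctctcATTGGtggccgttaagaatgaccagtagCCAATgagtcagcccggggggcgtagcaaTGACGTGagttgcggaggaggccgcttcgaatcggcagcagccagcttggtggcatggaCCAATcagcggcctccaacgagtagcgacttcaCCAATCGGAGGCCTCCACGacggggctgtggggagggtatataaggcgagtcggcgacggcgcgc
Atf4 (chr15:80254934-80255183, + strand): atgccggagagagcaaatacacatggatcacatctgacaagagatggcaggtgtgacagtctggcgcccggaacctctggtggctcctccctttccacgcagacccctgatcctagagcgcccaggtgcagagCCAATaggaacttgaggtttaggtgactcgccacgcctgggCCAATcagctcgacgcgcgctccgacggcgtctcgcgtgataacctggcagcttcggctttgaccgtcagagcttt
Ppp1r15a (chr7:45526269-45526518, − strand): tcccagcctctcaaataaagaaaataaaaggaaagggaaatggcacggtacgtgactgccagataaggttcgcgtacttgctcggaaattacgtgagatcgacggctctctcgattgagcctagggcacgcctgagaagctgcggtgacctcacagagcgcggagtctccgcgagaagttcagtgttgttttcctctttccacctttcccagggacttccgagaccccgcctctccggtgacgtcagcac

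Protein disulfide isomerases form and rearrange the disulfide bonds of secreted proteins. Of 5 members 1 was lower and 0 were higher (edgeR; 2 lower and 1 higher at an unadjusted p under 0.05, and 1 each with DESeq2). Txndc5, an isomerase abundant in endothelium and in plasma cells, stood at 85.5, 58.6 and 95.5 CPM in GFP-positive libraries and at 228.2, 173.2 and 172.4 CPM in GFP-negative libraries. The groups were well apart, with a fold change (log2) of −1.26 ± 0.24 (SE; adjusted p = 0.0155 by edgeR), and the call was lost in 1 of the 12 alternatives, that without GFP-negative library 1 (edgeR adjusted p = 0.0656). Pdia3, the partner of calnexin and calreticulin, stood at 949.0, 1162 and 1129 CPM in GFP-positive libraries, compared with 794.5, 755.7 and 896.3 CPM in GFP-negative libraries. Its groups did not overlap, and its log2 fold change of 0.41 ± 0.12 (SE) did not pass with TMM scaling (edgeR adjusted p = 0.0650) but did with upper quartile scaling (edgeR adjusted p = 0.0371) and with DESeq2 (adjusted p = 0.0130).

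Pdia4, an isomerase with several thioredoxin-like active sites, stood at 154.7, 152.2 and 228.8 CPM in GFP-positive libraries, compared with 270.8, 261.9 and 258.1 CPM in GFP-negative libraries, with no overlap and a fold change (log2) of −0.56 ± 0.20 (SE; adjusted p = 0.100 by edgeR). It passed without GFP-positive library 3 (−0.78; edgeR adjusted p = 0.0181). P4hb, the founding isomerase and a subunit of the collagen hydroxylase, averaged 587 ± 141 against 442 ± 57.0 CPM, and Pdia6, which attenuates IRE1, 392 ± 56.6 against 382 ± 22.9 CPM (SD, n = 3 each). Both overlapped between the groups and did not pass.

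ER-associated degradation draws misfolded proteins back to the cytosol for the proteasome. Of 7 members 2 were lower and 0 higher (edgeR; the same numbers at an unadjusted p under 0.05 and with DESeq2). Syvn1, the ubiquitin ligase HRD1 at the core of this route, stood at 19.7, 27.8 and 16.5 CPM in GFP-positive libraries and at 82.3, 37.5 and 71.5 CPM in GFP-negative libraries. GFP-negative library 2 lay nearest to the GFP-positive ones, and the log2 fold change was −1.58 ± 0.41 (SE; adjusted p = 0.0412 by edgeR). The call was lost without any 1 library except GFP-negative library 2 (edgeR adjusted p = 0.0593 to 0.145), with upper quartile scaling (0.0530) and with no filter on low counts (0.0523). Herpud1, a membrane protein that organises the HRD1 complex, stood at 234.3, 239.9 and 295.2 CPM in GFP-positive libraries, compared with 394.4, 352.9 and 408.5 CPM in GFP-negative libraries. Its groups did not overlap, with a fold change (log2) of −0.59 ± 0.15 (SE; adjusted p = 0.0343 by edgeR). That call was lost without any 1 library except GFP-positive library 3 (edgeR adjusted p = 0.0791 to 0.114), with upper quartile scaling (0.0538) and with no filter (0.0529).

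The other 5 degradation members did not pass. Sel1l, the adaptor of HRD1, averaged 97.6 ± 27.7 CPM in GFP-positive libraries, compared with 85.0 ± 24.2 CPM in GFP-negative libraries. Derl1, a derlin of the retrotranslocation channel, averaged 231 ± 17.3 and 220.3 ± 50.05 CPM. Derl2, another derlin, averaged 89.1 ± 33.4 and 66.8 ± 8.22 CPM, and Edem1, which marks misfolded glycoproteins, 122 ± 31.4 and 117 ± 47.7 CPM (SD, n = 3 each). All 4 overlapped between the groups. Derl3, a derlin of secretory cells, had 1, 0 and 38 counts in GFP-positive and 53, 0 and 62 counts in GFP-negative libraries, and its log2 fold change of −1.32 had a standard error of 2.21 (edgeR adjusted p = 0.762). Within each group its libraries differed widely.

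The translocon carries nascent chains into the ER. Of the 5 members listed for it 0 passed with edgeR, while 1 was higher at an unadjusted p under 0.05 and 1 with DESeq2. All 5 log2 fold changes lay between 0.17 and 1.07. Sec61b, a small subunit of the SEC61 channel, stood at 130.7, 117.9 and 62.4 CPM in GFP-positive libraries, compared with 59.9, 46.2 and 42.8 CPM in GFP-negative libraries. GFP-positive library 3 lay just above the GFP-negative ones, and the log2 fold change was 1.06 ± 0.34 (SE; adjusted p = 0.0741 by edgeR). It passed without that library (1.32; edgeR adjusted p = 0.0227) and with DESeq2 (adjusted p = 0.0235). Sec61g, the other small subunit, stood at 117.9, 86.1 and 42.0 CPM in GFP-positive libraries, compared with 52.5, 39.3 and 25.2 CPM in GFP-negative libraries. In both genes GFP-positive library 3 was the lowest of its group. The TRAP subunits Ssr1, Ssr2 and Ssr3, which assist the channel, averaged 209 ± 8.46, 90.0 ± 14.4 and 194 ± 29.9 CPM in GFP-positive libraries, compared with 162 ± 34.9, 79.9 ± 2.31 and 157 ± 34.5 CPM in GFP-negative libraries (SD, n = 3 each). The libraries of the groups overlapped for Ssr2 and Ssr3 but not for Ssr1 (200.6 to 217.4 against 123.0 to 190.8 CPM). The summed level of the 5 genes was 756, 652 and 628 CPM in GFP-positive libraries, compared with 456, 489 and 517 CPM in GFP-negative libraries. Sec61a1, a channel subunit that is not a member, averaged 179 ± 38.9 against 264 ± 55.2 CPM (SD). Its log2 fold change of −0.56 did not pass (edgeR adjusted p = 0.155). Over the 17 other translocation and signal peptidase genes tested, Sec61a1 included, the median log2 fold change was −0.08.

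Mzb1, an ER co-chaperone of marginal zone B cells and plasma cells that aids immunoglobulin assembly, had the largest fold change of the tested members. It stood at 4.77, 0.233 and 4.10 CPM in GFP-positive libraries and at 147.5, 126.5 and 99.2 CPM in GFP-negative libraries. The groups were far apart, GFP-positive library 2 held 4 counts, and the log2 fold change was −5.36 ± 0.95 (SE; adjusted p = 0.0114 by edgeR), lower under all 12 alternative settings. The B cell markers of the same libraries had a median log2 fold change of −7.04 and the plasma cell markers tested one of −4.48, and their part in the result was not tested. The 5 plasma cell markers tested ran from −7.54 to 2.40, and 3 of them did not pass. In GENCODE M21, 57.2% of the exon bases of Mzb1 are also part of another gene on the same strand. In all, 14 of the 39 members share exon bases with another annotated gene, 12 of them with one on the opposite strand, and 7 of the 10 called members are among the 14. Besides Mzb1, the stretch that a called member shares with any 1 other gene holds 0.397% to 8.05% of its exon bases. It holds 8.05% in Eif2ak3 and 0.409% in Ppp1r15a. Manf and Txndc5 overlap more than 1 gene, with stretches of 0.397%, 4.14% and 4.71% in Manf and of 4.99% and 6.92% in Txndc5. Strand cannot part the reads shared with a gene on the same strand, as in Mzb1. The gene that overlaps Mzb1 is, however, not among the 35275 identifiers counted. The same holds for the other genes of the 8.05% stretch in Eif2ak3 and the 6.92% stretch in Txndc5. For genes on the opposite strand, the sources used here do not say whether counting used the strand. The part of these shared stretches in the calls was not tested.

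**Figure D3:**
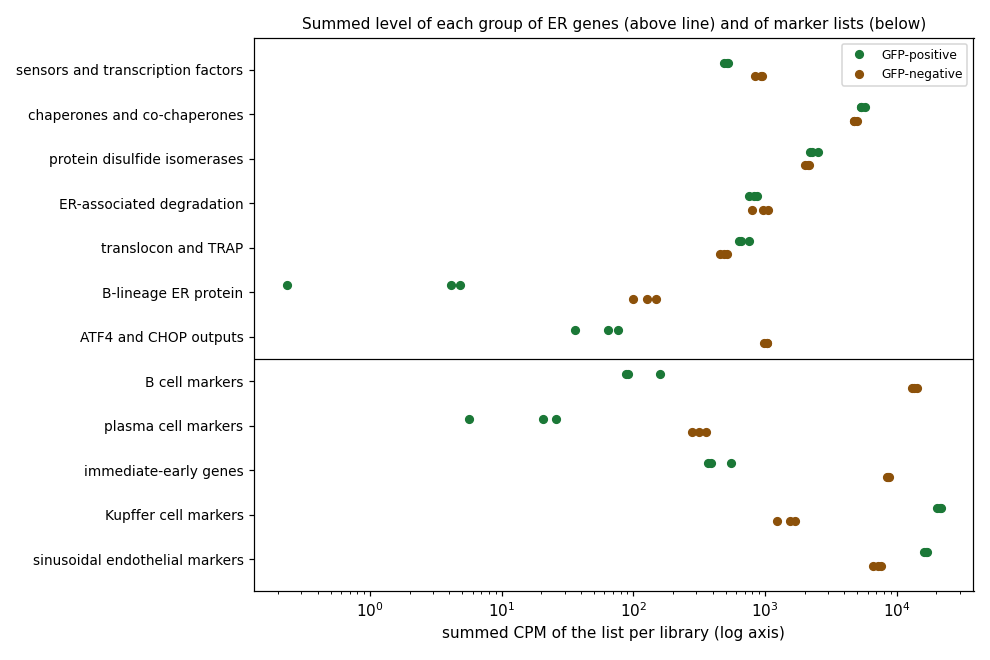
Summed CPM (x axis, log scale) in each library for the 7 groups of ER genes (above the line) and for 5 marker lists (below), with the GFP-positive group in green above the GFP-negative group in brown. Chaperones stand at 5324 to 5744 in GFP-positive and 4729 to 4993 CPM in GFP-negative libraries, while the B cell and immediate-early lists lie far apart.

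Levels of different genes were compared as CPM per kilobase of exon, with lengths from GENCODE M21. Hspa5 had the highest level per length in both groups, 446 ± 41.1 CPM per kb in GFP-positive and 447 ± 14.9 CPM per kb in GFP-negative libraries. In GFP-positive libraries Calr (358 ± 36.0) and Pdia3 (344 ± 36.6) followed with spreads that overlap, ahead of Sdf2l1 (234 ± 50.4) and P4hb (205.2 ± 49.3), which also lay within their spread. In GFP-negative libraries Ppp1r15a was next after Hspa5, at 341 ± 9.10 CPM per kb, within the spread of Calr at 328 ± 16.7, and Pdia3 (259.8 ± 23.1), Herpud1 (165 ± 12.4) and Atf4 (163 ± 31.0) came after. By level per length among the 39 members, Ppp1r15a ranked 25 in GFP-positive and 2 in GFP-negative libraries, Mzb1 34 and 12, Atf4 19 and 6, and Sdf2l1 4 and 9 (means of 3 libraries).

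Beyond the 39 members, 110 other genes of these routes were listed, and of the 107 tested 5 were higher (4.67%) and 10 lower (9.35%), close to the 7.65% and 10.1% of all genes. Among 18 other oxidoreductases and folding factors 3 were higher and 3 lower. Ero1lb, the oxidase ERO1 beta that recharges disulfide isomerases, averaged 13.5 ± 5.98 CPM in GFP-positive libraries, compared with 162 ± 23.7 CPM in GFP-negative libraries (SD, n = 3 each), with a log2 fold change of −3.59 (adjusted p = 0.00198 by edgeR). Txndc11, a thioredoxin-like ER protein, fell by 2.19 (edgeR adjusted p = 0.00356) and Erp44, which retains ERO1 in the secretory pathway, by 0.83 on the log2 scale (edgeR adjusted p = 0.0476). The call of Erp44 was lost in 8 of the 12 alternatives (edgeR adjusted p = 0.0508 to 0.150), among them each fit without 1 library except that without GFP-positive library 3. Prdx4, the peroxiredoxin of the ER, averaged 112 ± 28.9 CPM in GFP-positive libraries, compared with 46.4 ± 4.26 CPM in GFP-negative libraries, a log2 fold change of 1.27 (adjusted p = 0.0193 by edgeR). Sil1, a nucleotide exchange factor of BiP, rose by 1.23 (edgeR adjusted p = 0.0404) and Fkbp2, a prolyl isomerase, by 0.96 on the log2 scale (edgeR adjusted p = 0.0387). The calls of Ero1lb and Txndc11 held in all 12 alternatives, while without any 1 GFP-negative library or without GFP-positive library 2 the number of higher genes in this list was 0.

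Of 17 genes of N-glycosylation 1 was higher and 2 were lower. Stt3b, a catalytic subunit of the oligosaccharyltransferase, stood at 80.6, 15.9 and 49.3 CPM in GFP-positive libraries and at 466, 477 and 432 CPM in GFP-negative libraries, a fold change (log2) of −3.24 ± 0.54 (SE; adjusted p = 0.00946 by edgeR). Dad1, another subunit, fell by 0.88 on the log2 scale (edgeR adjusted p = 0.0156), and Mcfd2, which with Lman1 carries glycoproteins out of the ER, rose by 1.41 (edgeR adjusted p = 0.00366). The calls of Stt3b and Mcfd2 held in all 12 alternatives, and that of Dad1 was lost without GFP-negative library 1 or 2 (edgeR adjusted p = 0.0675 and 0.0602). Of 19 other degradation factors 1 was lower, Ube2j1, a ubiquitin-conjugating enzyme of the ER membrane (log2 fold change −1.05; edgeR adjusted p = 0.0404), and 0 higher (edgeR; 4 lower and 0 higher at an unadjusted p under 0.05, and 2 and 0 with DESeq2). Its call was lost in each fit without 1 library except that without GFP-positive library 3 (edgeR adjusted p = 0.0705 to 0.127), and with upper quartile scaling (0.0525). Of 17 tested translocation and signal peptidase genes 0 passed (edgeR; 1 higher and 2 lower at an unadjusted p under 0.05, and 0 with DESeq2).

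Of 19 tested other genes of the ATF4 and integrated stress response 1 was higher and 3 were lower. Phgdh, the entry enzyme of serine synthesis, held 1 count over the GFP-positive group and 2951 over the GFP-negative group, which makes the GFP-negative level 2507 times the GFP-positive one (exact 95% counting interval 449.98 to 99027, which leaves out the spread between libraries; edgeR adjusted p = 0.000771). Atf3, a stress-induced factor that is also an early-response gene, fell by 1.87 on the log2 scale (edgeR adjusted p = 0.0169) and Cebpb, a factor that pairs with ATF4, by 1.35 (edgeR adjusted p = 0.00715). Cebpg, another partner of ATF4, rose by 1.09 (edgeR adjusted p = 0.0193). The calls of Phgdh and Cebpb held in all 12 alternatives. That of Cebpg was lost without any 1 GFP-negative library (edgeR adjusted p = 0.0689 to 0.0816), and that of Atf3 without GFP-negative library 2 or 3 or GFP-positive library 1 (edgeR adjusted p = 0.0503 to 0.0718). Among 10 eIF2 alpha kinases, exchange factor subunits and phosphatase subunits 1 was lower and 0 higher (edgeR; 4 lower and 1 higher at an unadjusted p under 0.05, and 2 and 1 with DESeq2). The lower one was Ppp1r15b, the constitutive counterpart of Ppp1r15a, at 32.1 ± 10.9 CPM in GFP-positive libraries, compared with 94.3 ± 2.98 CPM in GFP-negative libraries (SD, n = 3 each; log2 fold change −1.56; edgeR adjusted p = 0.0181), a call lost without any 1 GFP-negative library or GFP-positive library 2 (edgeR adjusted p = 0.0529 to 0.0684). Of 7 tested relatives of ATF6 and site proteases, which cut ATF6, 0 passed (edgeR; 1 higher and 0 lower at an unadjusted p under 0.05, and 0 with DESeq2).

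**Figure D4:**
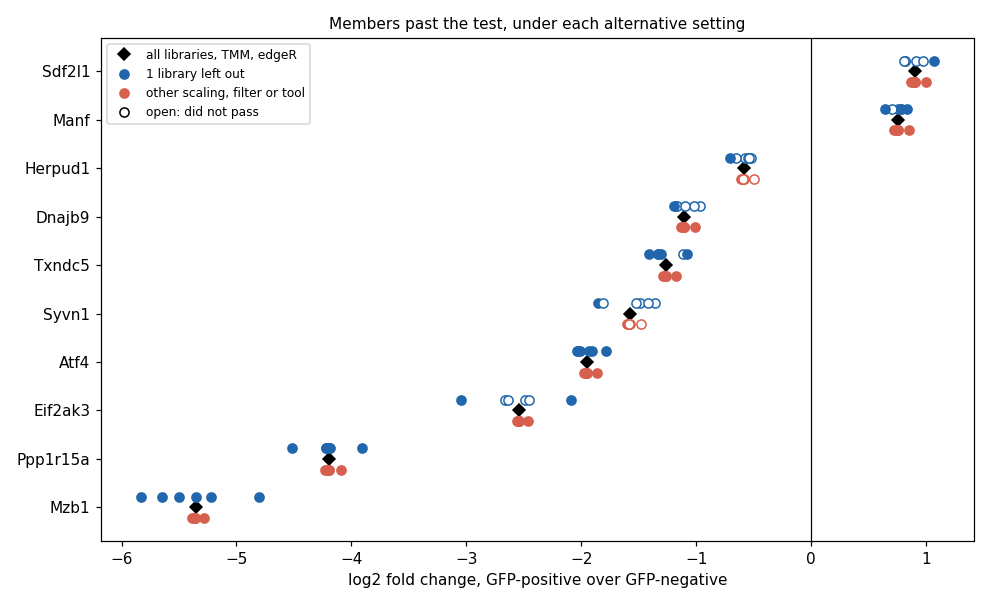
Log2 fold change, GFP-positive over GFP-negative (x axis), of the 10 members past the test (y axis), with all libraries (diamonds), without 1 library (blue) and with another scaling, filter or tool (red); open points did not pass. Mzb1, Ppp1r15a and Atf4 passed under all 12 alternatives, and each of the other 7 missed the test under at least 1.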

How the data were processed

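RNA was measured in 6 libraries, 3 of p16/EGFP-positive and 3 of p16/EGFP-negative CD31-positive liver cells, grouped by the sort given in the labels. Per the labels' protocols, libraries were made from poly-A RNA and amplified by PCR, with no molecular identifiers described. The deposited table holds raw counts of reads per gene for 35275 Ensembl identifiers, 34490 of them with a symbol, and the authors' values were used as they stand. Tools listed in the submitters' processing notes, with no role given, are HTSeq 0.6.1, edgeR, DESeq 1.18.0, RSEM, TopHat2 2.0.12 and Bowtie2 2.2.3. Build, annotation and the strand setting of the counting: not given in the sources used here. The totals of 16766556 to 22627555 counts limit the precision of low genes, and counting intervals and floors cover counting error only.

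The members and all gene lists (250 of 251 symbols matched) were chosen with earlier results of these data known. Every member is named. From each other pathway list the genes named are up to 3 called genes with the smallest p in the direction of most of its calls, and up to 3 called against it. Sec61a1 is named besides, as another subunit of the SEC61 channel. From each marker list it is the called gene with the highest mean CPM.

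Genes past edgeR's filterByExpr (minimum count 10) numbered 12122. They were fitted with edgeR 4.0.16 in R 4.3.3 (TMM scaling, robust glmQLFit, glmQLFTest) with Benjamini-Hochberg adjustment and a call at an adjusted p under 0.05. The share of all genes at an unadjusted p under 0.05 is not given, so list counts at that threshold lack a base rate. The fit was tested on simulated data in which 200 of 11621 genes were changed, whereas 2157 of 12122 were called in the real data. With fewer changed genes the adjustment is stricter, so the rates that follow need not hold for the members. Of 100 genes with a true log2 fold change of 1 in size 5 were called, and of 100 with one of 2 in size 28. Of 11421 unchanged genes 1 was called. A gene that did not pass may therefore still differ between the groups. The standard error comes from the test statistic, and the 95% interval from it and the degrees of freedom of the fit. The common biological coefficient of variation was 0.816. Levels per kilobase used exon lengths from GENCODE M21, which may differ from the authors' annotation. Alternatives were DESeq2 1.42.0, library totals alone, upper quartile scaling, no filter, a mean of at least 1 CPM, the fit without immunoglobulin and lymphocyte genes, and leaving out each library. Promoter sequences are from RefSeq, build GRCm38.p6.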

Additional observations from a re-analysis of the deposited data

How the results depend on the processing

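No paired analysis was possible because the labels give the groups no shared replicate numbers. With 1 library left out at a time, 994 to 1810 genes were called, against 2157 with all libraries, 497 to 743 of them higher and 496 to 1067 lower. Among the members 0 to 3 were higher and 3 to 7 lower, and their median log2 fold change was −0.0764 to 0.14. DESeq2 called 3225 genes, 1426 of them higher and 1799 lower, and 4 members higher. Upper quartile scaling called 3 members higher and 6 lower, and no filter 2 and 6. The median log2 fold change of all genes was 0.00265 with upper quartile scaling, a shift of 0.0927, and −0.27 with no filter, a shift of −0.18, against −0.09. With upper quartile scaling 1065 genes were higher and 1150 lower.

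The calls of Atf4, Ppp1r15a and Mzb1 held in all 12 alternatives. Signs turned only for members that did not pass in any of the settings concerned. With 1 library left out, the lowest and highest log2 fold changes were −0.0798 and 0.0563 for Hspa5, −0.12 and 0.20 for Dnajb11, −0.0764 and 0.26 for Creld2, −0.0798 and 0.13 for Pdia6, −0.0543 and 0.27 for Derl1 and −0.22 and 0.38 for Edem1. With upper quartile scaling Hspa5 was at 0.0882. The cause was not tested. Derl3, Trib3, Chac1 and Asns had 0 counts in at least 1 library and 45 or more in another.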
